A study of Mus musculus with 18 samples.

Results

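Intracisternal A-particle (IAP) elements were followed here locus by locus in the rRNA-depleted RNA-seq of Atrx knockout mesenchymal progenitor cells. Of the 3725827 transposable element (TE) loci listed in the count table, 28733 carried a name with the family ERVK and a subfamily starting with IAP, and all of these were taken as members. They fell into 25 subfamilies, of which 10 were internal regions with 15008 loci and 15 were long terminal repeats (LTRs) with 13725 loci. The names give the subfamily and a running number but no coordinates, so positions, host genes and sequences of the loci are not given here.

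The cells were C3H/10T1/2, a mouse line of multipotent mesenchymal progenitor cells (MPCs). The 3 lines were WT cells, which had received the Cas9 vector without a guide, and the single-cell Atrx knockout clones sg5 (clone G7) and sg6 (clone B10), each made with a different guide. Each line gave 3 libraries, 9 in all, so that p-values measure the spread between libraries of 1 line and a change that came with the cloning cannot be told apart from one that came with the guide. In these bulk samples, fewer cells with a transcript and less of it per cell cannot be told apart.

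IAPs are mouse endogenous retroviruses: an internal region that codes for Gag, protease and polymerase is flanked by LTRs, and the 5′ LTR holds the promoter. Some copies are still able to move in the mouse genome, while many are broken or reduced to a solitary LTR. In most tissues they are held silent by DNA methylation and by H3K9me3, placed by SETDB1 and TRIM28 after KRAB zinc finger proteins have bound. ATRX and DAXX, which deposit the histone variant H3.3, act at the same heterochromatin.

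Total counts per library were between 20135336 and 33187136. Atrx stood at 213, 185 and 222 CPM (counts scaled to a common library size with TMM factors) in WT, at 107, 58.4 and 71.0 in sg5 and at 96.6, 72.7 and 80.3 in sg6. No clone library reached the level of a WT library, and the fitted change was -1.39 on the log2 scale in sg5 (SE 0.21, adjusted p = 0.00138) and -1.31 in sg6 (SE 0.21, adjusted p = 0.00227). TEs took 11.8%, 12.3% and 15.5% of all counts in WT, and WT replicate 3 was above all other libraries, which held between 10.4% and 12.3%. Mesenchymal markers had a summed level between 5090 and 6295 CPM in WT, between 7615 and 9976 CPM in sg5, and between 8103 and 9885 CPM in sg6. Vim was the largest single part of this sum, with means of 2494, 4341 and 4252 CPM. It did not pass in either clone (adjusted p = 0.0588 in sg5 and 0.0873 in sg6). Eng and Itgb1 were called higher in both clones, whereas Pdgfra, Prrx1 and Twist1 had log2 fold changes below 0 in both and were not called. Of the mesenchymal markers, Nt5e was near 0 in all lines and Thy1 was near 0 in WT and sg5 only, with a mean of 27.0 CPM in sg6 (sg5 vs sg6 log2 fold change -8.25, adjusted p = 3.77e-07). Epithelial markers summed to between 1.56 and 3.05 CPM in WT, between 0.111 and 0.557 CPM in sg5, and between 0.290 and 0.547 CPM in sg6. In WT this was mostly Cdh1, which was lower in sg5 (log2 fold change -3.82, adjusted p = 0.00275) and in sg6 (-3.18, adjusted p = 0.00693). Pluripotency markers stayed at or under 0.161 CPM, with Dppa3 and Zfp42 listed at 0 counts in all libraries, and blood markers summed to 0.963 to 1.89 CPM. The part of these differences in the IAP results was not tested.

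IAP RNA was scarce and unevenly spread over the loci. Of the 28733 loci, 6196 (21.6%) had at least 1 count in any library, 457 had a count in every library, and 22537 had none. Most of the detected loci were close to the limit of counting, with 4354 at 10 counts or fewer over the 9 libraries together. The 384 loci that passed the filter on low counts held 75.8% of all IAP counts, and 51 loci held 50% of them. At this depth, a locus without a count may still be transcribed below detection, and a count of 0 allows up to 3 counts in a library (counting error only).

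IAPs as a whole did not pass the test in either clone. The libraries held 17882, 23310 and 36721 IAP counts in WT, 24751, 18432 and 24548 in sg5, and 21796, 24300 and 21290 in sg6. As a share of all counts these were 0.0745%, 0.0869% and 0.111% in WT, 0.0913%, 0.0915% and 0.0899% in sg5, and 0.0891%, 0.0834% and 0.0881% in sg6. The WT libraries spanned the values of both clones, with the lowest and the highest share of the 9, while the sg5 libraries lay close together. The means were 0.0907% ± 0.0183 (SD, n = 3), 0.0909% ± 0.000871 and 0.0869% ± 0.00305, with two-sided exact permutation p = 1.0 for sg5 and 0.9 for sg6 against WT, in a design that cannot go below p = 0.1. Fitted as a single feature beside all genes, the summed IAP level had a log2 fold change of 0.06 in sg5 (SE 0.14, adjusted p = 0.801) and 0.01 in sg6 (SE 0.14, adjusted p = 0.971). The other ERVK loci, summed in the same way, stood at -0.35 in sg5 (adjusted p = 0.135) and -0.25 in sg6 (adjusted p = 0.335).

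The IAP share of TE-derived RNA was ordered by line, in a design too small for the order to pass a test. IAPs made up 0.632%, 0.704% and 0.712% of TE counts in WT, 0.808%, 0.882% and 0.786% in sg5, and 0.762%, 0.739% and 0.726% in sg6. Every clone library was above every WT library (exact permutation p = 0.1 for each clone, two-sided, the smallest this design allows). The share of LTR-class counts was ordered in the same way, with 5.91%, 5.67% and 5.79% in WT, 7.10%, 7.61% and 6.66% in sg5, and 6.83%, 6.56% and 6.57% in sg6 (exact permutation p = 0.1 for each, a measure added after the data had been seen). The total TE share, which is the divisor of the former, was itself lower in every sg5 library (10.4% to 11.4% of all counts) than in every WT library (11.8% to 15.5%, exact permutation p = 0.1), and its part in the difference was not tested.

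**Figure D1:**
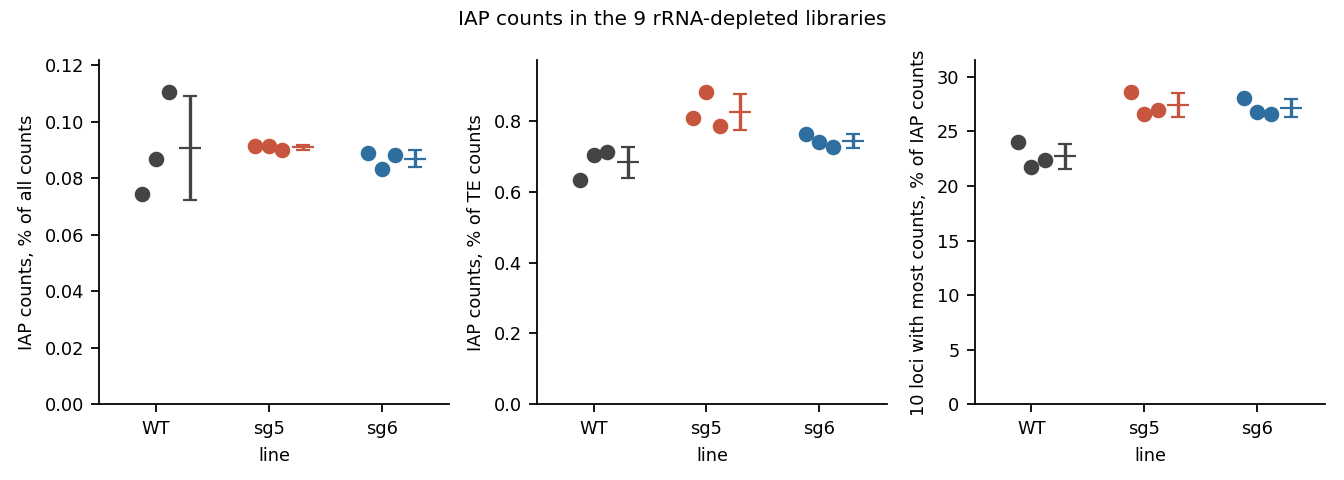
IAP counts in each of the 9 libraries as a percentage of all counts (left) and of TE counts (middle), and the percentage of IAP counts in the 10 most counted loci (right), for WT, sg5 and sg6. Points are libraries and the bars beside them are the mean with the SD of 3 libraries. By all counts the WT libraries, at 0.0745% to 0.111%, span both clones, whereas by TE counts the highest WT library (0.712%) is below the lowest clone library (0.726%).

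IAP counts came mainly from internal regions, which held 81.2% of them against 18.8% in LTRs. The internal share averaged 81.5% ± 0.993 (SD, n = 3) in WT, 80.5% ± 0.469 in sg5 and 81.4% ± 0.853 in sg6. The differences were -1.01 and -0.05 percentage points, and the libraries of each clone overlapped WT (exact permutation p = 0.2 and 0.9). Over tested loci alone, every sg5 library (82.6% to 84.6%) was below every WT library (85.1% to 87.3%). That difference was -2.44 percentage points (exact permutation p = 0.1, the smallest this design allows), beside -1.19 in sg6 (p = 0.4). The 10 most counted loci of each library held 24.0%, 21.7% and 22.4% of IAP counts in WT, 28.6%, 26.6% and 26.9% in sg5, and 28.1%, 26.7% and 26.6% in sg6. All clone libraries were above all WT libraries in this measure of concentration (exact permutation p = 0.1 for each).

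Summed by subfamily, few IAPs differed between the lines. Of the 25 subfamilies, 23 passed the filter and the other two, IAPEY5_I-int and IAPLTR3, had 29 and 66 counts over all libraries. In sg5, 1 subfamily was higher and 2 were lower, where 8.57% of all features in this fit (genes and TE subfamilies) were called higher and 8.18% lower. In sg6, 1 was lower, against 5.79% of all features, and by edgeR 0 were higher, against 5.74% of all features. In the higher direction 2 subfamilies had an unadjusted p under 0.05 in sg6, and DESeq2 called 0. Between the clones, 1 was lower in sg5 than in sg6, against 1.32% of all features. By edgeR 0 were higher in sg5 than in sg6, against 0.615% of all features, with 1 at an unadjusted p under 0.05 and 0 called by DESeq2. The median log2 fold change of the 23 subfamilies in sg5 was -0.25, beside 0.01 for all features tested. This median counts each subfamily once, whatever its level, and is no measure of the summed IAP RNA. IAPEz-int, with 63.7% of IAP counts, stood at 0.16 in sg5.

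IAPLTR3-int, an internal region with 1.24% of IAP counts, was the subfamily that fell in both clones. It stood at 18.3, 14.2 and 24.0 CPM in WT, at 8.66, 6.07 and 6.09 in sg5 and at 7.98, 3.53 and 6.76 in sg6. All clone libraries were below all WT libraries. The log2 fold change was -1.44 in sg5 (SE 0.31, adjusted p = 0.0130) and -1.63 in sg6 (SE 0.31, adjusted p = 0.00907). Both comparisons used the same WT libraries, and the sg5 call was lost without WT replicate 3 (adjusted p = 0.057).

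The other calls at this level were close to the threshold. IAPLTR1_Mm, the LTR subfamily with the most counts (9.62% of IAP counts), stood at 68.6, 76.2 and 84.3 CPM in WT, at 97.2, 102 and 96.5 in sg5 and at 80.4, 91.2 and 85.5 in sg6. It was higher in sg5 (log2 fold change 0.37, SE 0.11, adjusted p = 0.0445), without overlap with WT, and had a value of 0.17 in sg6 (adjusted p = 0.378), where the libraries overlapped WT. This call passed in 2 of the 9 fits that left out a library, and was lost without WT replicate 1 or 2, any sg5 library, or sg6 replicate 2 or 3 (adjusted p 0.0512 to 0.127). IAPLTR4, an LTR subfamily, stood at 2.5, 2.57 and 3.36 CPM in WT, at 1.83, 1.37 and 1.5 in sg5 and at 1.60, 1.37 and 2.11 in sg6, again with no overlap between WT and the clones. It was lower in sg5 (log2 fold change -0.84, SE 0.25, adjusted p = 0.050, just under the threshold), a call lost without any 1 of the 9 libraries (adjusted p 0.0523 to 0.156), and was at -0.73 in sg6 (adjusted p = 0.0949).

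IAP-d-int was the subfamily that set the clones apart from each other. It stood at 38.1, 22.3 and 28.6 CPM in WT, at 25.5, 16.6 and 19.3 in sg5 and at 57.0, 35.4 and 47.1 in sg6. The sg6 libraries were above all sg5 libraries, while each clone overlapped WT when replicate numbers were ignored. Within each replicate number, sg5 was the lowest line and sg6 the highest. The log2 fold change between sg5 and sg6 was -1.18 (SE 0.24, adjusted p = 0.0436), with -0.53 (adjusted p = 0.163) and 0.65 (adjusted p = 0.121) against WT. With the replicate number as a block, a link that no label states, both values against WT passed (edgeR, adjusted p = 0.00491 in sg5 and 0.00224 in sg6). The call between the clones was lost without WT replicate 3, sg5 replicate 2 or 3, or sg6 replicate 1 or 3 (adjusted p 0.0853 to 0.164). The difference rested on 1 locus, IAP-d-int_dup1000, which held 52.1% of the subfamily's counts. Without this locus, an alternative added after the data had been seen, the value turned to 1.09 (adjusted p = 0.0553), and those against WT were 0.36 (adjusted p = 0.314) and -0.73 (adjusted p = 0.0812).

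IAPEz-int, the internal region of the largest and most counted subfamily, held 63.7% of IAP counts. It stood at 436, 542 and 670 CPM in WT, at 577, 643 and 626 in sg5 and at 523, 557 and 555 in sg6. The WT libraries spanned the sg6 libraries and overlapped sg5, and the log2 fold changes were 0.16 (adjusted p = 0.473) and -0.01 (adjusted p = 0.970). IAPEY4_I-int, the next internal region with 8.94% of IAP counts, stood at 62.7, 61.0 and 95.4 CPM in WT, at 86.0, 60.8 and 63.4 in sg5 and at 104, 84.5 and 100 in sg6, with log2 fold changes of -0.06 in sg5 and 0.40 in sg6 (adjusted p = 0.257 in sg6).

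Over all subfamilies that did not pass, log2 fold changes lay between -0.89 and 0.54 in sg5 (20 subfamilies, adjusted p 0.104 to 0.980) and between -1.37 and 0.65 in sg6 (22 subfamilies, adjusted p 0.0793 to 0.987). The low end was IAPEY5_LTR in both clones and the high end in sg5 was IAPLTR2b. Of the IAPLTR1 and IAPLTR2 type LTRs, IAPLTR2b had values of 0.54 and 0.50, with 49.2% of its counts from the locus IAPLTR2b_dup43, IAPLTR2a2_Mm -0.54 and -0.56, IAPLTR2_Mm -0.23 and -0.33, IAPLTR2a -0.16 and -0.46, and IAPLTR1a_Mm -0.25 and -0.06. Of the IAPEY group, whose LTRs and internal regions are listed apart, IAPEY4_LTR had 0.20 and 0.57, IAPEY3_LTR 0.26 and 0.39, IAPEY_LTR 0.16 and -0.32, IAPEY2_LTR -0.13 and -0.14, IAPEY3C_LTR 0.02 and -0.02, IAPEY3-int -0.61 and -0.49, and IAPEy-int -0.31 and -0.07. The remaining internal regions and their LTR were IAP1-MM_I-int with -0.53 and -0.48, IAP1-MM_LTR with -0.50 and -0.30, IAPA_MM-int with -0.34 and 0.05, and IAPLTR4_I with -0.28 and -0.52. None of these values is a change that passed the test.

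**Figure D2:**
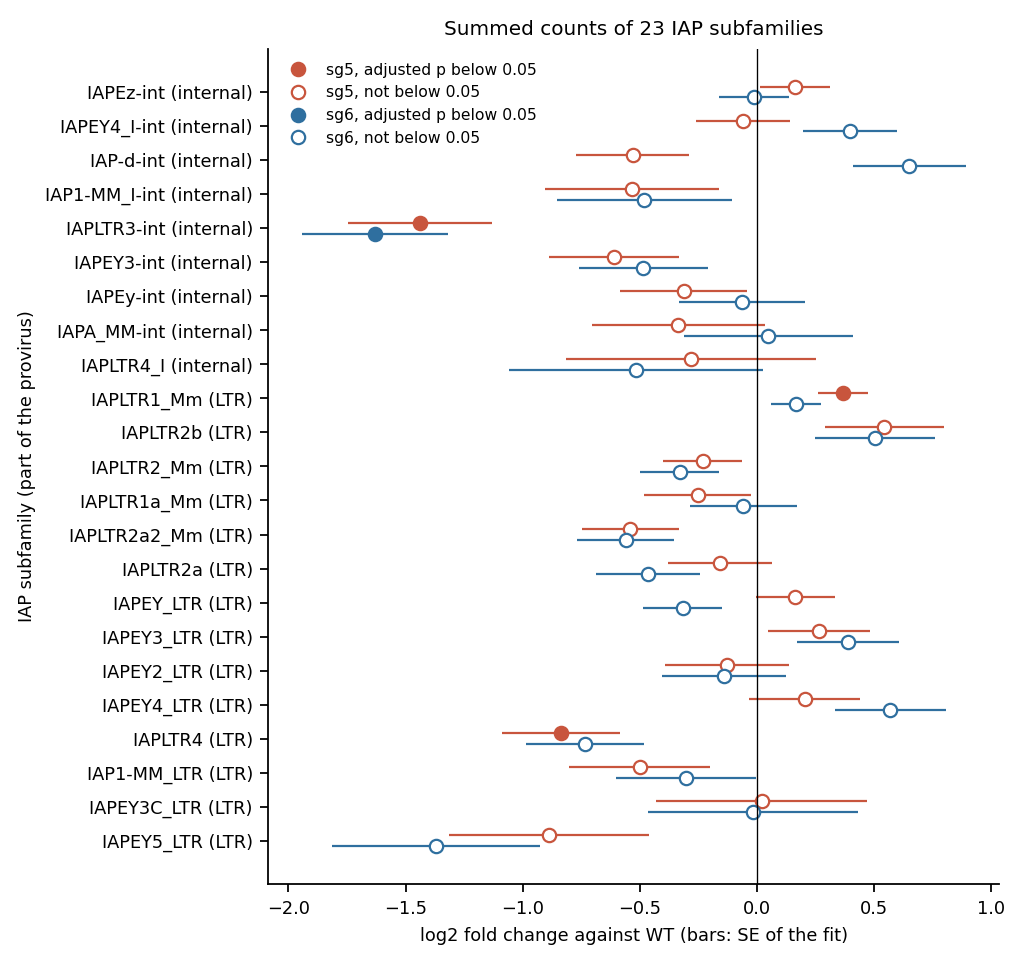
Log2 fold change of each of the 23 tested IAP subfamilies in sg5 and in sg6 against WT, with bars of 1 SE, filled points where the adjusted p was under 0.05 and open points elsewhere. IAPLTR3-int lies at -1.44 and -1.63, IAP-d-int points to opposite sides in the clones (-0.53 and 0.65), and the other subfamilies lie on both sides of 0.

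At the level of single loci, called IAPs were a small group in both clones. In sg5, 7 of the 384 tested loci were higher (1.82%) and 16 were lower (4.17%), where 1.82% of all features in this fit, genes and TE loci together, were called higher and 2.06% lower. In sg6, 13 loci were higher (3.39%) and 21 lower (5.47%), against 1.18% and 1.72% of all features. The share called higher in sg5 lay at the background and the other shares above it in this fit. Under median-of-ratios size factors the sg5 counts were 11 higher (2.86%, against 1.88% of all features) and 16 lower (4.17%, against 1.88%), and under TMM factors from TE loci alone 17 higher (4.43%, against 1.83%) and 16 lower (4.17%, against 1.71%). Among features with at least 10 counts in every library, which leaves out loci near 0 in any line, 115 IAP loci were tested and the excess was not seen: 4.35% were higher and 1.74% lower in sg5, against 4.83% and 3.78% of all features, and 2.61% and 1.74% in sg6, against 2.61% and 1.88%. In the main fit, the libraries of WT and the clone did not overlap at any of the called loci (23 in sg5, 34 in sg6). The calls came from these same values, so this adds no evidence. The share without overlap over all called features was not counted.

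Other repeat groups gave a measure of what these shares stand beside. In sg5, 0.998% of the other ERVK loci tested were higher and 3.24% lower, and in L1Md loci, a group of young mouse LINE-1 elements, 0.864% and 4.15%. In sg6 the shares were 0.956% and 3.08% for the other ERVK loci and 1.04% and 4.23% for L1Md loci. ERV1 loci were at 0.853% and 1.71% in sg5 and at 0.683% and 2.56% in sg6. No test was made of the differences between these groups of loci.

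**Figure D3:**
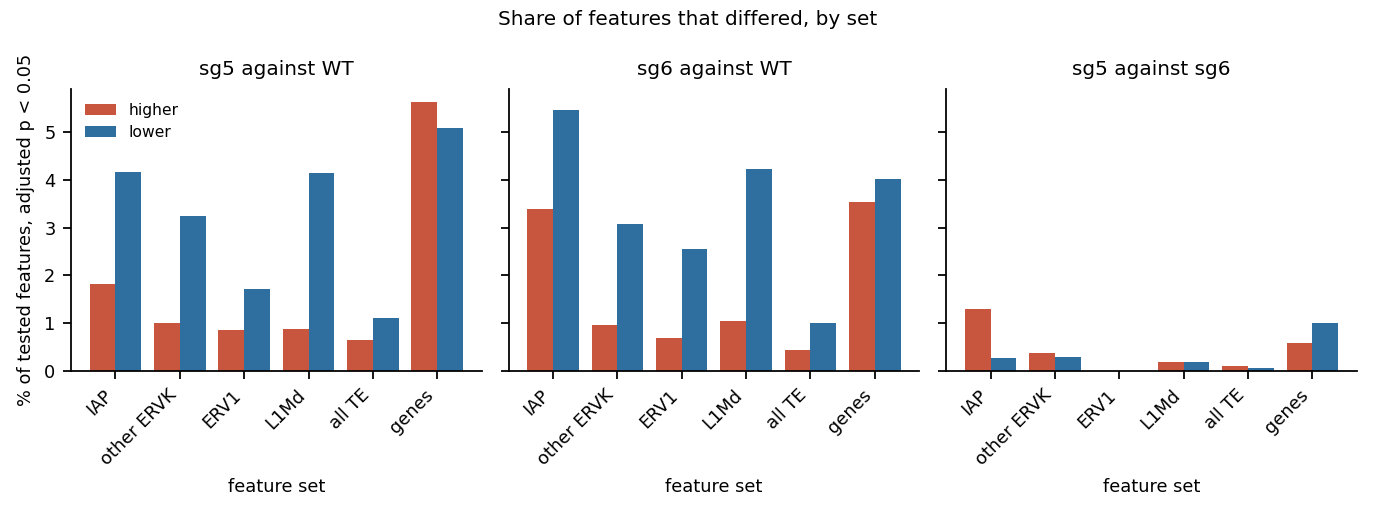
Percentage of tested features called higher and lower in sg5 against WT, sg6 against WT and sg5 against sg6, for IAP loci, other ERVK, ERV1 and L1Md loci, all TE loci and genes. Against WT, lower calls outnumber higher calls among IAP loci (16 against 7 in sg5, 21 against 13 in sg6), as they do among other ERVK and L1Md loci.

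The tested IAP loci were centred near 0 and went both ways. The median log2 fold change was 0.06 in sg5, with 203 loci above 0 and 181 below, and -0.02 in sg6, with 188 above and 196 below. Over all features tested the medians were -0.06 and -0.04, and for the other ERVK loci -0.19 and -0.12. The interquartile range of the IAP loci ran from -0.55 to 0.67 in sg5 and from -0.60 to 0.56 in sg6.

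**Figure D4:**
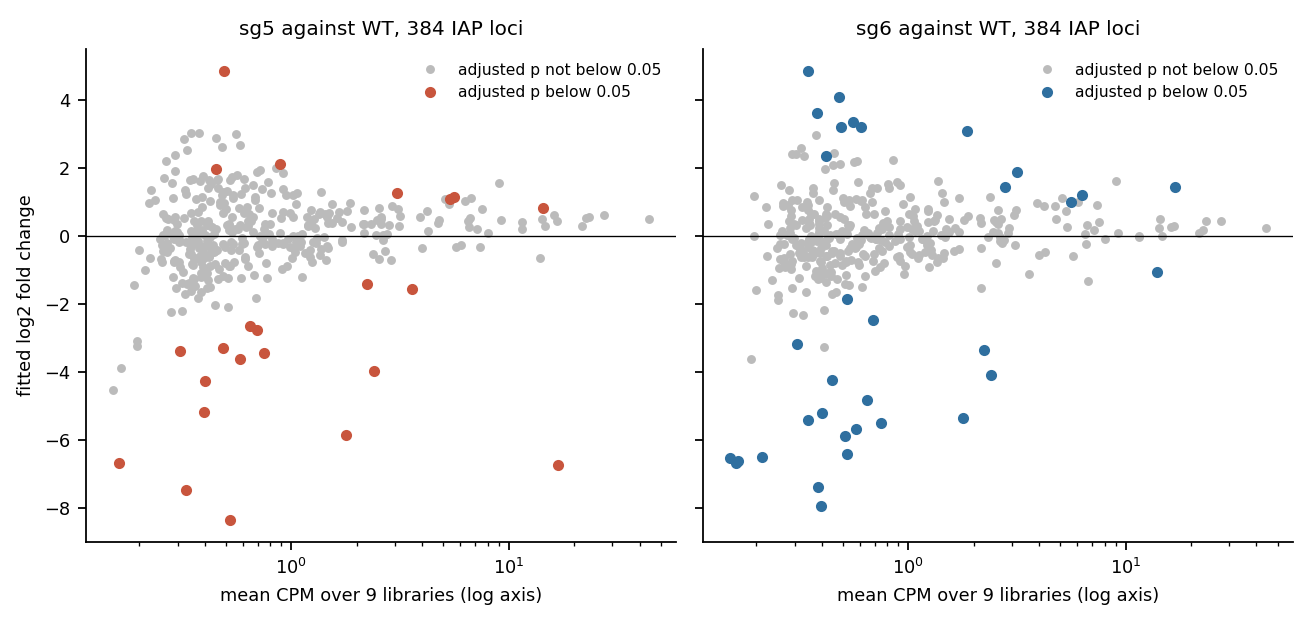
Log2 fold change against mean CPM over the 9 libraries (log axis) for the 384 tested IAP loci, with sg5 on the left, sg6 on the right and called loci coloured. The cloud centres near 0 (medians 0.06 and -0.02), and the most abundant called locus is IAP-d-int_dup1000, at -6.74 in sg5 and 1.44 in sg6.

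Of the 384 tested loci, 295 were internal regions and 89 were LTRs. Internal regions gave 5 higher and 15 lower calls in sg5, and 11 higher and 19 lower in sg6. LTR loci gave 2 higher and 1 lower in sg5 and 2 higher and 2 lower in sg6. By subfamily, IAPLTR3-int gave 1 higher and 5 lower in sg5 and 0 higher and 7 lower in sg6 of 12 loci tested. IAPEY4_I-int gave 0 higher and 2 lower in sg5 and 7 higher and 3 lower in sg6 of 24 tested. IAPEz-int gave 3 higher and 5 lower in sg5 and 2 higher and 5 lower in sg6 of 229 tested. Beside all these counts stand the shares over all features, 1.82% higher and 2.06% lower in sg5, and 1.18% and 1.72% in sg6. Among called loci, 2 of 23 in sg5 and 14 of 34 in sg6 had a running number within 3 of another called locus of the same subfamily. Whether such neighbours are pieces of 1 insertion is not given in the sources used here, so called loci may not be separate insertions.

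IAP-d-int_dup1000 was the most abundant called locus. It had 480, 282 and 404 counts in WT, 4, 1 and 4 in sg5, and 1104, 784 and 882 in sg6. The locus was well transcribed in WT, nearly lost in sg5 and highest in sg6, with no overlap between any of the lines. Its level was 13.7 ± 5.67 CPM (SD, n = 3) in WT, 0.117 ± 0.0547 in sg5 and 37.0 ± 8.81 in sg6. In sg5 it was 117-fold lower (log2 fold change -6.74, SE 0.42, adjusted p = 1.15e-06) and in sg6 2.71-fold higher (log2 fold change 1.44, SE 0.27, adjusted p = 0.00863). The sg6 call was lost without WT replicate 3 (adjusted p = 0.0720). Between the clones the difference was 317-fold (log2 fold change -8.18, adjusted p = 3.77e-07).

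Other loci of the IAP-d-int internal region moved in ways of their own. IAP-d-int_dup989 had 0, 2 and 1 counts in WT, 22, 16 and 43 in sg5 and 7, 5 and 14 in sg6, so that it was nearly undetected in WT and present in both clones. The ratio to WT was 33.2 in sg5 (95% exact counting interval 11.0 to 164, adjusted p = 0.00142) and 10.2 in sg6 (3.13 to 52.7, adjusted p = 0.0466). The sg6 call passed in 2 of the 9 fits that left out a library and was lost without any WT library, sg5 replicate 2 or 3, or sg6 replicate 1 or 3 (adjusted p 0.0505 to 0.225). IAP-d-int_dup978 had 222, 78 and 190 counts in WT, 449, 182 and 279 in sg5 and 90, 33 and 45 in sg6, which was the reverse order of IAP-d-int_dup1000. It was 5.40-fold higher in sg5 than in sg6 (log2 fold change 2.44, adjusted p = 0.0289), a call lost without WT replicate 3, sg6 replicate 2 or sg6 replicate 3 (adjusted p 0.0587, 0.0999 and 0.166), and it did not pass against WT in either clone (1.1 with adjusted p = 0.201, and -1.34 with adjusted p = 0.178).

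A pair of neighbouring numbers in this subfamily had no count in sg6. IAP-d-int_dup1153 had 12, 10 and 22 counts in WT and 0 in all clone libraries, at least 3.78-fold lower in sg5 (adjusted p = 0.0353) and at least 4.05-fold lower in sg6 (adjusted p = 0.0395) against a floor of 3 counts per library. IAP-d-int_dup1154 had 11, 16 and 14 counts in WT, 2, 0 and 0 in sg5 and 0 in sg6, at least 3.92-fold lower in sg6 (adjusted p = 0.0364), with a ratio of 16.7 in sg5 (95% counting interval 4.33 to 142) that did not pass (adjusted p = 0.0899). These calls rested on few counts, and IAP-d-int_dup1153 was not tested in the fit without WT replicate 3. That of IAP-d-int_dup1153 was lost in sg5 without WT replicate 1 or 2, any sg5 library or sg6 replicate 3 (adjusted p 0.0532 to 0.156), and in sg6 without WT replicate 1 or 2, sg5 replicate 2 or 3 or any sg6 library (adjusted p 0.0526 to 0.176). That of IAP-d-int_dup1154 was lost without any single library other than sg5 replicate 1 (adjusted p 0.0529 to 0.242).

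Of the 12 IAPLTR3-int loci tested, 5 fell in sg5 and 7 in sg6. IAPLTR3-int_dup1758 had 118, 92 and 266 counts in WT, 1, 3 and 2 in sg5 and 5, 0 and 4 in sg6, and was 56.4-fold lower in sg5 (adjusted p = 0.000113) and 40.9-fold lower in sg6 (adjusted p = 0.000141). IAPLTR3-int_dup131 had 53, 23 and 60 counts in WT, 0 in every sg5 library and 1, 0 and 0 in sg6. It was at least 12.1-fold lower in sg5 (adjusted p = 0.000616), and the ratio of WT to sg6 was 115 (95% counting interval 20.4 to 4592, adjusted p = 0.000926). Both loci kept their calls without any 1 of the 9 libraries.

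IAPLTR3-int_dup134, close in number to IAPLTR3-int_dup131, had 37, 44 and 66 counts in WT, 6, 7 and 5 in sg5 and 3, 1 and 0 in sg6. IAPLTR3-int_dup1729 had 29, 44 and 71 counts in WT, 4, 8 and 4 in sg5 and 7, 9 and 5 in sg6, and IAPLTR3-int_dup1616 had 34, 29 and 85 in WT, 3 in each sg5 library and 0, 0 and 2 in sg6. These 3 loci lay outside the naming rule and were chosen after their values were seen. All were called lower in both clones, also without any 1 of the 9 libraries. Their log2 fold changes were -2.67, -2.76 and -3.62 in sg5 (adjusted p 0.00512, 0.0028 and 0.00228) and -4.83, -2.49 and -5.67 in sg6 (adjusted p 0.000314, 0.00511 and 0.000417).

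Other loci of the subfamily differed by clone. IAPLTR3-int_dup75 had 33, 26 and 34 counts in WT, 18, 7 and 8 in sg5 and 0, 0 and 1 in sg6. In sg6 the ratio of WT to the clone was 78.9 (95% counting interval 13.8 to 3150, adjusted p = 0.000466), while in sg5 the log2 fold change of -1.24 did not pass (adjusted p = 0.180). The ratio of sg5 to sg6 was 34.4 (5.77 to 1401, adjusted p = 0.0217), lost without sg5 replicate 1, sg6 replicate 1 or sg6 replicate 2 (adjusted p 0.0646, 0.0585 and 0.113). IAPLTR3-int_dup72, a near number, had 13, 10 and 14 counts in WT, 7, 5 and 3 in sg5 and 0 in sg6, and was at least 3.56-fold lower in sg6 (adjusted p = 0.0175). This call passed in 4 of the 8 fits that left out a library and tested the locus. It was lost without WT replicate 1 or 2 or sg6 replicate 2 or 3 (adjusted p 0.0623 to 0.0958). The exception in direction was IAPLTR3-int_dup1739, with 9, 10 and 9 counts in WT, 51, 24 and 26 in sg5 and 41, 10 and 20 in sg6. It was 4.25-fold higher in sg5 (log2 fold change 2.10, adjusted p = 0.0393), a call lost without any WT library, sg5 replicate 1 or 2, or sg6 replicate 3 (adjusted p 0.0529 to 0.182), and had a log2 fold change of 1.57 in sg6 (adjusted p = 0.179).

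IAPEY4_I-int held loci that rose in sg6 beside loci that fell in both clones. IAPEY4_I-int_dup345 had 158, 137 and 293 counts in WT, 16, 3 and 11 in sg5 and 10, 9 and 9 in sg6. It was 16.7-fold lower in sg5 (log2 fold change -3.99, SE 0.38, adjusted p = 4.4e-05) and 17.3-fold lower in sg6 (log2 fold change -4.11, SE 0.38, adjusted p = 3.85e-05), and kept both calls without any 1 library. IAPEY4_I-int_dup13, outside the naming rule and given because the clones differed, had 104, 111 and 198 counts in WT, 49, 30 and 45 in sg5 and 17, 8 and 8 in sg6. The lines did not overlap, and the log2 fold changes were -1.42 in sg5 (adjusted p = 0.0188), -3.36 in sg6 (adjusted p = 9.14e-05) and 1.94 between sg5 and sg6 (adjusted p = 0.0249). The sg5 call was lost without WT replicate 1 or 3 or sg5 replicate 2 or 3 (adjusted p 0.0644 to 0.0967), and the difference between the clones without WT replicate 1, sg5 replicate 2 or 3 or sg6 replicate 2 or 3 (adjusted p 0.0521 to 0.173).

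The rising loci of this internal region were at low counts in WT. IAPEY4_I-int_dup126 had 23, 3 and 16 counts in WT, 8, 22 and 38 in sg5 and 99, 101 and 111 in sg6, and was 8.25-fold higher in sg6 (log2 fold change 3.07, adjusted p = 0.0098). IAPEY4_I-int_dup218 had 0, 2 and 3 counts in WT, 6, 11 and 8 in sg5 and 22, 23 and 31 in sg6, 20.1-fold higher in sg6 (log2 fold change 4.09, adjusted p = 0.0022) and 7.33-fold in sg5, where it did not pass (adjusted p = 0.0567). For both, sg6 lay above all other libraries. IAPEY4_I-int_dup373 had 2, 0 and 4 counts in WT, 4, 7 and 4 in sg5 and 19, 19 and 26 in sg6, 13.4-fold higher in sg6 (log2 fold change 3.60, adjusted p = 0.0101). IAPEY4_I-int_dup407 had 4, 3 and 5 counts in WT, 12, 2 and 19 in sg5 and 42, 34 and 20 in sg6, 9.30-fold higher in sg6 (adjusted p = 0.00605). The call of IAPEY4_I-int_dup126 was lost without WT replicate 3 (adjusted p = 0.0826), that of IAPEY4_I-int_dup373 without sg6 replicate 3 (0.0630), and that of IAPEY4_I-int_dup407 without WT replicate 3 (0.0505).

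At higher counts, IAPEY4_I-int_dup372, which is numbered next to IAPEY4_I-int_dup373, had 41, 30 and 66 counts in WT, 48, 52 and 62 in sg5 and 98, 162 and 168 in sg6. It was 3.72-fold higher in sg6 (log2 fold change 1.89, adjusted p = 0.00301) and kept the call without any 1 library. Between the clones its log2 fold change of -1.31 did not pass (adjusted p = 0.106), nor did that of IAPEY4_I-int_dup12 (-1.27, adjusted p = 0.0806), with 108, 72 and 108 counts in sg5 and 217, 248 and 254 in sg6. The remaining called loci of the rising kind, outside the naming rule, were IAPEY4_I-int_dup498 and IAPEY4_I-int_dup390, with log2 fold changes of 1.21 and 1.44 in sg6 (adjusted p 0.0287 and 0.0281), each lost without WT replicate 1 or 2 and without sg6 replicate 1 or 3 (IAPEY4_I-int_dup498) or 1 or 2 (IAPEY4_I-int_dup390), at adjusted p 0.0653 to 0.111. In sg5 the 7 rising loci did not pass, and between the clones none of them passed, so a difference between sg5 and sg6 at these loci was not shown.

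Of the 229 IAPEz-int loci tested, the most of any subfamily, 3 were called higher and 5 lower in sg5, and 2 and 5 in sg6. Over all features, 1.82% were called higher and 2.06% lower in sg5, and 1.18% and 1.72% in sg6. The most counted IAP locus of all, IAPEz-int_dup745, had 870, 859 and 1654 counts in WT, 1655, 884 and 1264 in sg5 and 975, 1464 and 919 in sg6, or means of 37.1, 51.8 and 43.8 CPM. Its log2 fold changes were 0.48 (adjusted p = 0.197) and 0.24 (adjusted p = 0.693). IAPEz-int_dup1227 had 495, 610 and 780 counts in WT, 948, 469 and 982 in sg5 and 816, 668 and 681 in sg6, with 0.61 (adjusted p = 0.0847) and 0.45 (adjusted p = 0.298). Of the rest of the 5 most counted loci, IAPEz-int_dup2380 had 0.57 (adjusted p = 0.0607) and 0.43 (adjusted p = 0.215), IAPEz-int_dup159 0.52 (adjusted p = 0.174) and 0.18 (adjusted p = 0.795), and IAPEz-int_dup2297 0.29 (adjusted p = 0.506) and 0.07 (adjusted p = 0.938). All 10 values were above 0 and none passed the test. In CPM, every clone library was above every WT library for IAPEz-int_dup1227 and IAPEz-int_dup2380.

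The IAPEz-int loci that rose in sg5 included abundant ones with changes of moderate size. IAPEz-int_dup6370 had 74, 100 and 112 counts in WT, 179, 151 and 180 in sg5 and 205, 160 and 122 in sg6, 2.22-fold higher in sg5 (log2 fold change 1.15, adjusted p = 0.0154) and 2.0-fold in sg6 (log2 fold change 1.0, adjusted p = 0.0377). IAPEz-int_dup4585 had 249, 334 and 332 counts in WT, 549, 305 and 494 in sg5 and 403, 352 and 342 in sg6, 1.76-fold higher in sg5 (log2 fold change 0.82, adjusted p = 0.0215). IAPEz-int_dup4480 had 6, 2 and 8 counts in WT, 18, 11 and 23 in sg5 and 10, 12 and 13 in sg6, 3.92-fold higher in sg5 (adjusted p = 0.0394). IAPEz-int_dup287 rose in sg6, with 5, 1 and 1 counts in WT, 4, 22 and 21 in sg5 and 32, 23 and 11 in sg6 (9.58-fold, adjusted p = 0.0446). Each of these calls was lost without WT replicate 3, at adjusted p = 0.0872 and 0.177 for IAPEz-int_dup6370 in sg5 and sg6, 0.121 for IAPEz-int_dup4585, 0.11 for IAPEz-int_dup4480 and 0.242 for IAPEz-int_dup287. They were also lost without WT replicate 1 or sg5 replicate 2 (IAPEz-int_dup6370 in sg5), without WT replicate 1 or 2, sg5 replicate 3 or sg6 replicate 1 or 2 (IAPEz-int_dup6370 in sg6), without WT replicate 1 or sg5 replicate 1 or 3 (IAPEz-int_dup4585), without WT replicate 1 or 2, any sg5 library or sg6 replicate 3 (IAPEz-int_dup4480), and without WT replicate 2 or sg6 replicate 1 or 2 (IAPEz-int_dup287).

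Falling IAPEz-int loci were at low counts, with the exception of IAPEz-int_dup1944. IAPEz-int_dup1026 had 13, 34 and 61 counts in WT, 4, 0 and 0 in sg5 and 0, 1 and 1 in sg6, 22.9-fold lower in sg5 (adjusted p = 0.00817) and with a ratio of WT to sg6 of 45.8 (95% counting interval 12.4 to 383, adjusted p = 0.00485). IAPEz-int_dup6108 had 13, 17 and 49 counts in WT, 0 in sg5 and 3, 0 and 9 in sg6, at least 6.42-fold lower in sg5 (adjusted p = 0.0148) and 4.89-fold in sg6 (adjusted p = 0.223, not passed). WT replicate 3 held the highest count in both, and without it IAPEz-int_dup1026 had adjusted p = 0.125 in sg5 and 0.0982 in sg6, and IAPEz-int_dup6108 had 0.125 in sg5. IAPEz-int_dup3052 had 17, 23 and 23 counts in WT, 4, 1 and 0 in sg5 and 27, 14 and 9 in sg6, so that it was low in sg5 alone (10.7-fold lower, adjusted p = 0.0197, and log2 fold change -0.10 with adjusted p = 0.972 in sg6). That call was lost without any WT library or sg5 replicate 2 or 3 (adjusted p 0.0543 to 0.0714), and the difference between the clones was not among the calls. IAPEz-int_dup1024, close in number to IAPEz-int_dup1026, had 13, 10 and 15 counts in WT, 0, 1 and 0 in sg5 and 0 in sg6, at least 3.64-fold lower in sg6 (adjusted p = 0.0388). That call passed in 0 of the 8 fits that left out a library and tested the locus (adjusted p 0.0538 to 0.194). Without WT replicate 3 the locus was not tested.

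The remaining called loci lay outside the naming rule and are given to complete the account. IAPEz-int_dup1944 had 402, 538 and 880 counts in WT, 283, 293 and 317 in sg5 and 223, 264 and 227 in sg6, 2.11-fold lower in sg6 (log2 fold change -1.08, adjusted p = 0.0068) and at -0.65 in sg5, where it did not pass (adjusted p = 0.0847). IAPEz-int_dup2137 had 66, 70 and 31 counts in WT, 5, 3 and 5 in sg5 and 0, 1 and 2 in sg6, and fell in both clones (log2 fold change -3.46 in sg5, adjusted p = 0.00261, and a ratio of WT to sg6 of 47.2 with a 95% counting interval of 15.9 to 231, adjusted p = 0.0004). IAP1-MM_I-int_dup267 had 180, 109 and 248 counts in WT, 64, 33 and 52 in sg5 and 73, 64 and 71 in sg6, and fell in sg5 (log2 fold change -1.57, adjusted p = 0.00678). In sg6 it did not pass (adjusted p = 0.0515), with log2 fold changes of -1.33 to -0.87 over the alternative fits. These loci were separated from WT in all clone libraries and kept the calls without any 1 library. IAP1-MM_I-int_dup363, IAPEY4_I-int_dup14 and IAPLTR1_Mm_dup157 fell in sg6 (adjusted p 0.00193, 0.0146 and 0.0381), and IAPEz-int_dup5957 fell in both clones (adjusted p 0.034 and 0.0494). Of these, IAPEY4_I-int_dup14 was lost without WT replicate 1 or 3 or sg6 replicate 3 (adjusted p 0.0633 to 0.0692), IAPLTR1_Mm_dup157 without any single library other than sg5 replicate 1 (0.0555 to 0.187), and IAPEz-int_dup5957 without any WT library, sg5 replicate 2 or 3 in sg5 (0.0643 to 0.268) or sg6 replicate 1 or 2 in sg6 (0.095 to 0.381).

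Of the 89 tested LTR loci, which carry the promoters, 2 were higher and 1 lower in sg5, and 2 were higher and 2 lower in sg6. The shares over all features were 1.82% higher and 2.06% lower in sg5, and 1.18% and 1.72% in sg6. IAPLTR1_Mm_dup319 had 45, 51 and 71 counts in WT, 101, 97 and 125 in sg5 and 73, 93 and 51 in sg6, and was 2.42-fold higher in sg5 (adjusted p = 0.0130). IAPLTR1_Mm_dup160 had 82, 112 and 142 counts in WT, 187, 182 and 187 in sg5 and between 73 and 157 in sg6, and was 2.10-fold higher in sg5 (adjusted p = 0.0354). Both were above all WT libraries in sg5. In sg6, IAPLTR1_Mm_dup160 overlapped WT, whereas IAPLTR1_Mm_dup319 was above WT in CPM without passing the test. The calls were lost without WT replicate 2 or 3 or sg5 replicate 2 for IAPLTR1_Mm_dup319 (adjusted p 0.0536 to 0.0670), and without any WT library, sg5 replicate 2 or 3 or sg6 replicate 3 for IAPLTR1_Mm_dup160 (adjusted p 0.0529 to 0.130).

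In sg6, IAPLTR1_Mm_dup367 had 29, 11 and 18 counts, against 0, 2 and 0 in WT and 7, 8 and 0 in sg5, a ratio of 34.2 to WT (95% counting interval 9.04 to 289, adjusted p = 0.0321). IAPLTR1_Mm_dup320 had 3, 3 and 6 counts in WT, 15, 8 and 8 in sg5 and 22, 26 and 6 in sg6, 5.33-fold higher in sg6 (adjusted p = 0.0446). These rested on few counts, and were lost without WT replicate 1 or 3 or sg6 replicate 1 or 3 for IAPLTR1_Mm_dup367 (adjusted p 0.0786 to 0.168), and without any WT library, sg5 replicate 2 or sg6 replicate 1 or 2 for IAPLTR1_Mm_dup320 (adjusted p 0.0527 to 0.168). An LTR locus that fell in both clones was IAPLTR2a2_Mm_dup1488, with 30, 22 and 54 counts in WT, 1, 1 and 0 in sg5 and 0 in sg6. The ratio of WT to sg5 was 43.1 (95% counting interval 11.6 to 360, adjusted p = 0.00163), and in sg6 it was at least 9.74-fold lower (adjusted p = 0.000674). It kept both calls without any 1 library.

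IAPEY_LTR_dup1197 and IAP1-MM_I-int_dup362 differed between the clones. IAPEY_LTR_dup1197, an LTR, had 75, 50 and 56 counts in WT, 79, 87 and 89 in sg5 and 26, 21 and 8 in sg6, and was 5.03-fold higher in sg5 than in sg6 (log2 fold change 2.31, adjusted p = 0.0235). The call was lost without sg5 replicate 2, sg6 replicate 2 or sg6 replicate 3 (adjusted p 0.0940, 0.0879 and 0.122). IAP1-MM_I-int_dup362, an internal region, had 23, 17 and 30 counts in WT, 16, 5 and 6 in sg5 and 0 in sg6, and was at least 6.63-fold lower in sg6 (adjusted p = 0.00158). In sg5 its log2 fold change was -1.10 (adjusted p = 0.305), and it was at least 3.02-fold higher in sg5 than in sg6 (adjusted p = 0.0313), lost without WT replicate 1 or 3, sg5 replicate 1 or sg6 replicate 2 or 3 (adjusted p 0.0722 to 0.10).

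In all, 5 IAP loci were higher in sg5 than in sg6 (1.3% of those tested) and 1 was lower (0.26%), where 0.216% and 0.275% of all features were called. The higher loci were IAP-d-int_dup978, IAPLTR3-int_dup75, IAPEY4_I-int_dup13, IAPEY_LTR_dup1197 and IAP1-MM_I-int_dup362, and the lower locus was IAP-d-int_dup1000. These 6 loci belong to 5 subfamilies, and for the higher ones except IAP-d-int_dup978 and IAPEY_LTR_dup1197 the value in sg5 lay between those of WT and sg6.

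**Figure D5:**
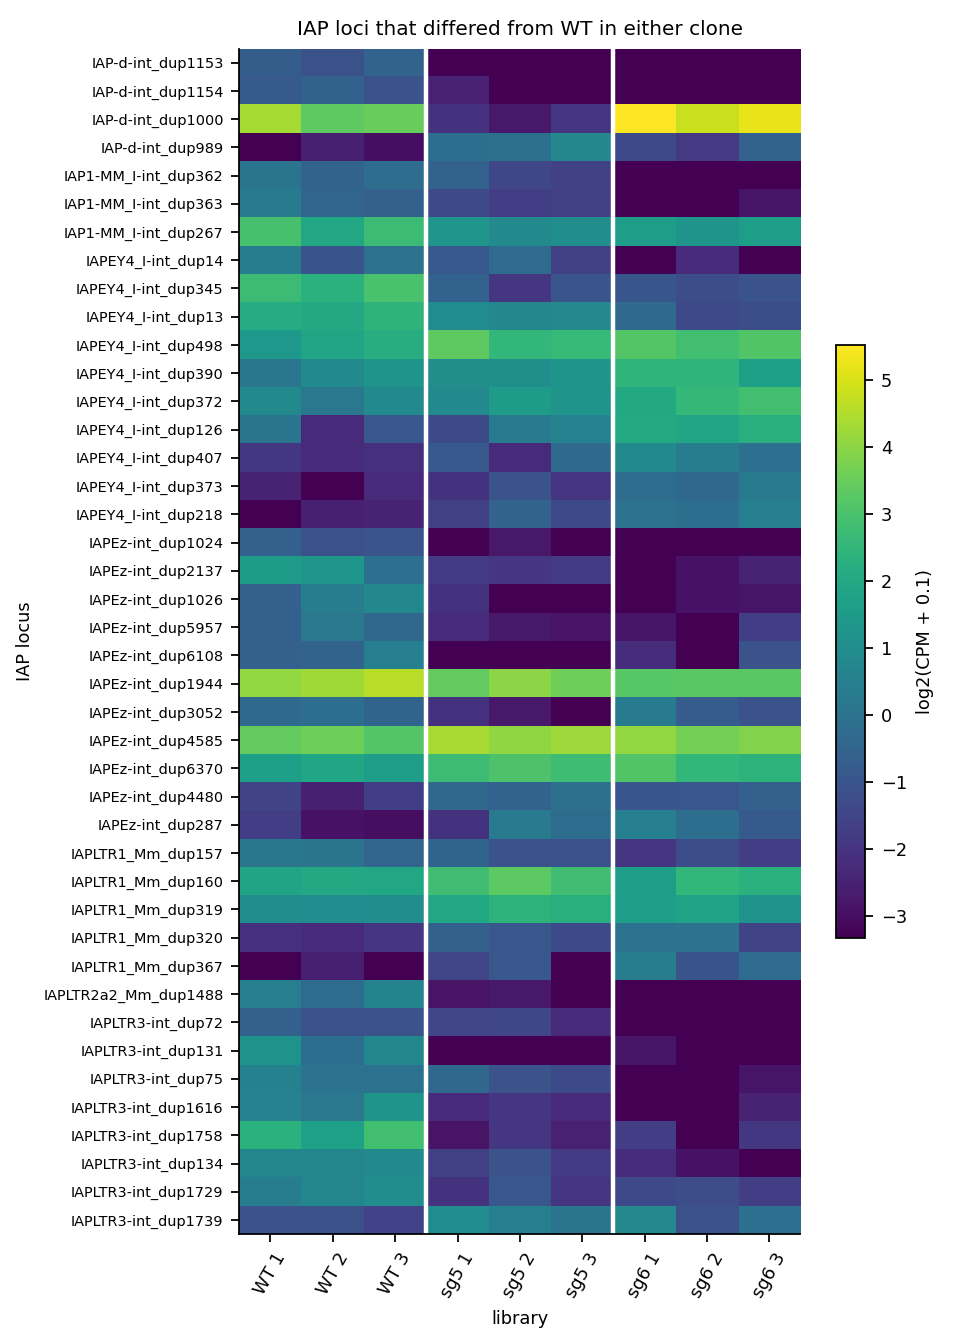
Level of the 42 IAP loci called against WT in either clone in each of the 9 libraries, as log2(CPM + 0.1) on a colour scale, with loci as rows and the libraries of WT, sg5 and sg6 as columns. IAP-d-int_dup1000 is bright in WT and sg6 and dark in sg5, IAPLTR3-int_dup1758 and IAPEY4_I-int_dup345 are bright in WT only, and IAPEY4_I-int_dup126 and IAPEY4_I-int_dup218 are brightest in sg6.

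Genes linked to the silencing of retroelements or to DNA demethylation were taken as a list of 34, all of which were tested in the same fit. Not every member is known to act on IAP elements. Tet1, Tet2 and Tet3 are the demethylating members, and none of them was called. In sg5, 2 were higher and 2 lower, and in sg6 1 was higher and 1 lower, Atrx being among the lower ones in both. Of all genes in this fit, 5.64% were called higher and 5.1% lower in sg5, and 3.55% and 4.03% in sg6. Tasor, which codes for a subunit of the HUSH complex that silences retroelements, rose in both clones, from 31.3, 28.5 and 33.1 CPM in WT to 62.1, 51.7 and 53.5 in sg5 and 52.3, 51.5 and 57.5 in sg6 (log2 fold change 0.85 with adjusted p = 0.00352 in sg5 and 0.80 with adjusted p = 0.00637 in sg6). Mphosph8, which codes for the HUSH subunit that binds H3K9me3, rose in sg5 from 11.1, 14.0 and 11.1 CPM to 21.8, 34.2 and 26.9 (1.19, adjusted p = 0.00469) and stood at 22.8, 15.1 and 18.4 in sg6 (0.64, adjusted p = 0.160). Cbx1, which codes for the heterochromatin protein HP1 beta, fell in sg5 from 132, 126 and 106 CPM to 71.0, 73.8 and 79.5 (-0.70, adjusted p = 0.00963) and stood at 87.3, 86.3 and 82.6 in sg6 (-0.51, adjusted p = 0.0694). Trim28, Setdb1, Daxx and Dnmt1, whose products act on IAP chromatin directly, were not called in either clone. The median log2 fold change of the list, which mixes silencing and demethylating genes, was -0.12 in sg5 and -0.10 in sg6. For all features tested it was -0.06 and -0.04.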

How the data were processed

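RNA was measured by rRNA-depleted RNA-seq in 9 libraries. Their labels give the clones G7 and B10, which the labels of the poly(A) libraries tie to sg5 and sg6. Per the labels and the study's methods, the authors aligned reads with STAR 2.27.10a, keeping up to 100 alignments per read, to mm10, and counted genes and single TE loci with TElocal 1.1.1, which shares multi-mapping reads out over loci. Near-identical IAP copies can therefore exchange counts, and a locus inside a gene can take reads of its host. The strand setting is not given in the sources used here. The deposited values were raw counts of 24100 genes and 3725827 TE loci. The authors' poly(A), chromatin and other data were not used here.

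Counts were tested with edgeR 4.0.16 (quasi-likelihood, R 4.3.3) after filterByExpr (minimum count 10, total 15) and TMM scaling, in 1 model over all 9 libraries, with Benjamini-Hochberg adjustment over all features tested and a threshold of 0.05. Loci (56086 features), subfamilies (14310) and the summed IAPs (13362) were fitted apart, each beside all genes. The sg5 and sg6 comparisons share the WT libraries. Shares were compared by two-sided exact permutation tests (SciPy 1.17.1), and the 4 planned share tests gave no adjusted p under 0.05. Where a line was at 0, folds were taken against 3 counts per library, and sums of 1 to 3 counts got exact 95% intervals, which cover counting error only.

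The members and lists were chosen with earlier results of these data known. All subfamilies were named, with the 5 most counted loci and, by contrast, the largest called changes without overlap between lines (up to 8 per direction against WT, up to 4 between clones, or the 3 smallest p where fewer than 3 passed). Replicates of a line differed beyond counting noise (chi-square per IAP locus 3.64 to 6.01). Gene symbols came from RefSeq GRCm38.p6 (24045 matched). The scripts were tested on simulated counts in which 200 features were changed 2-fold or 4-fold. At the level of loci the main test found 32 of them in sg5 and 34 in sg6. Of those found, 7 and 4 were 2-fold changes. A locus that did not pass is therefore not shown to be unchanged. The alternatives were other size factors, DESeq2 1.42.0, other filters, the compared lines alone, a replicate block, TMM factors from genes or TEs, a fold limit and leaving out each library.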

Additional observations from a re-analysis of the deposited data

Results flagged for a closer look

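The differences listed here were those for which the clones departed from each other in a test of sg5 against sg6 (edgeR's quasi-likelihood test with Benjamini-Hochberg adjustment). Among the subfamilies it was IAP-d-int, with a log2 fold change of -1.18. Among loci, IAP-d-int_dup1000 had -8.18, IAP-d-int_dup978 2.44, IAPEY4_I-int_dup13 1.94, IAPEY_LTR_dup1197 2.31, IAPLTR3-int_dup75 4.66 and IAP1-MM_I-int_dup362 6.29, of which the last rests on a line without a count and is no measure of its size. Among the marker genes it was Thy1, with -8.25. Each clone is 1 line, so a difference between guides and one between clones cannot be told apart.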

How the results depend on the processing

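The summed IAP level passed the test under none of the 17 alternatives, with log2 fold changes of -0.06 to 0.26 in sg5 (lowest adjusted p 0.220) and -0.11 to 0.20 in sg6 (0.405), and -0.06 to 0.23 and -0.11 to 0.18 over the fits that left out a library. TMM factors from TEs moved the median of all features by 0.16 in both clones. As a share of LTR-class counts the sg5 log2 ratio was 0.30, not 0.00, and over tested loci alone the internal share differed by -2.44 and -1.19 percentage points, not -1.01 and -0.05. The cause of the differences below was not tested, save where fewer features or libraries entered.

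Of subfamilies higher in sg5 (1), 0 were left under size factors, no filter, 10 counts in every library, the compared lines alone, either TMM subset and a log2 limit of 1. Of those lower (2), 1 was left under size factors, no filter, the compared lines, TE factors and the limit. The IAP-d-int difference between clones (1 lower) was gone (0) with 10 counts in every library, the compared lines and TE factors, and turned to 1.09 without its most abundant locus. Leaving out libraries gave 0 to 1 for each.

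Loci higher in sg5 (7) numbered 11 under size factors (2.86%, against 1.88% of all features) and 19 by DESeq2 (4.95%, against 2.78%). They numbered 15 without filter (0.242%, against 0.141%) and 17 with TE factors (4.43%, against 1.83%). With 10 counts in every library, 115 loci were tested, of which 2 were lower in sg5 (1.74%, against 3.78% of all features), 3 higher and 2 lower in sg6 (2.61% and 1.74%, against 2.61% and 1.88%), and 0 between clones either way. Higher between clones was 0 for the compared lines, against 0.146% of all features. Lower was 7 by DESeq2 (1.82%, against 0.439%), 6 without filter (0.0968%, against 0.0313%) and 2 for the compared lines (0.727%, against 0.221%). Leaving out libraries gave 3 to 13 higher and 10 to 18 lower in sg5, 7 to 19 and 13 to 22 in sg6, and 0 to 5 and 1 to 3 between clones. Those fits tested 441 to 501 IAP loci. Of all features they called 0.642% to 1.73% higher and 1.09% to 1.72% lower in sg5. The shares were 0.455% to 1.39% and 0.828% to 1.81% in sg6, and 0.093% to 0.262% and 0.122% to 0.233% between clones.

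Replicate numbers were shared between lines without a stated link. Same-numbered libraries correlated at 0.043 to 0.395 in their deviations over all features, and at 0.053 to 0.257 over IAP loci. Of 18 comparisons with another line, a library correlated best with its own number in 14 over all features and in 17 over IAP loci. With the number as a replicate block, 23 loci were higher in sg5 (5.99%, against 3.6% of all features) and 21 in sg6 (5.47%, against 2.15%). Between clones 4 were lower (1.04%, against 0.419%). IAP-d-int was then called against WT in both clones, lower in sg5 (adjusted p = 0.00491) and higher in sg6 (adjusted p = 0.00224), the 1 subfamily higher there.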
